A study of Ovis aries with 6 samples.

Results

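The genes described here carry the electrical signal of the muscle membrane to calcium release, or hold and return the calcium of the store. They were chosen by gene symbol for these known roles, with earlier results of these data known. They number 10: RYR1, CACNA1S, CACNB1, CACNG1, STAC3, JPH1, CASQ1, CASQ2, ATP2A1 and ATP2A2. The deposited table lists 23144 genes, of which 17668 had at least 1 read in the 6 libraries. A filter on low counts kept 12506 genes for testing, and all 10 coupling and store genes passed it.

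RNA was sequenced from the longissimus dorsi, a long muscle of the back, of 3 sheep of the breed Qianhua Mutton Merino (QHMM) and 3 of the breed Small Tail Han (STH). The animals were adult females aged 1 year, raised in the same environment, and each gave 1 library of poly(A) RNA read on an Ion Proton instrument. QHMM is a recent breed kept for meat and wool and STH is a traditional local breed, and the comparison asks which muscle transcripts differ between them. The QHMM libraries held total counts of 14334544, 12980936 and 12382244, given here and below in replicate order, and the STH libraries 13107349, 10982191 and 13546561.

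In skeletal muscle, an action potential enters the fibre along the transverse tubules, where the dihydropyridine receptor acts as a voltage sensor and opens the ryanodine receptor of the facing sarcoplasmic reticulum. Calcium held in the reticulum by calsequestrin then leaves the store, binds troponin and starts contraction, and SERCA pumps bring it back. Fast and slow fibres differ in which calsequestrin and SERCA isoform they use: CASQ1 and ATP2A1 are the main isoforms of fast fibres, while CASQ2 and ATP2A2 are also the isoforms of slow fibres and of the heart.

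The 6 libraries did not form 2 tight groups. The first principal component of the tested genes took 43.3% of the variance and separated the breeds. The second took 19.3% and set QHMM replicate 2 and STH replicate 3 apart from the other libraries, with scores of -32.6 and -41.2 against 12.5 to 26.6 in the others. The same pair had the lowest scaling factors, 0.852 and 0.853, against 1.01 to 1.20 in the others, so edgeR's calls over all genes, the 10 genes, the wider list and the marker lists with calls are also given without them.

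Read counts were scaled to a common library size by the trimmed mean of M values (TMM), and these scaled values are called normalized counts. A gene was called when edgeR's quasi-likelihood test gave a false discovery rate (FDR, the p-value adjusted by the Benjamini-Hochberg method over all 12506 genes) below 0.05 and the change was more than 1.5-fold. Fold changes are STH against QHMM on the log2 scale, with negative values lower in STH. The p-values measure the spread between these animals, 3 in each breed.

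The genes were chosen with earlier results of these data known, so shares over all tested genes are given for description and not as a test. Of the 10 coupling and store genes, 1 was called, CASQ2, which was lower in STH. Over all tested genes, 1.83% were called in that direction and 3.45% in either. All 10 fold changes were negative, from -1.37 to -0.13 with a median of -0.73, whereas 48.2% of all tested genes had a negative value and their median was 0.02. The sign was the same in every alternative that gave a value, except that JPH1 turned positive without STH replicate 1. In 5 of the 10 (CACNB1, STAC3, CASQ1, CASQ2 and ATP2A2) every STH library lay below every QHMM library in normalized counts, which was true of 11.7% of all tested genes. This depended on the scale. By the deposited RPKM (reads divided by gene length and library size, without the TMM factors) it held for 7 of the 10, against 7.82% of all tested genes with an RPKM: CACNA1S, CACNG1 and ATP2A1 joined and CASQ2 dropped out. Overlap of the breeds below refers to normalized counts unless RPKM is named. The 5 genes that did not overlap in normalized counts had an unadjusted p below 0.05, a value that 9.72% of all tested genes reached lower in STH and 9.43% higher in STH. DESeq2, another count test, called all 5 of them at the same thresholds, against 3.91% of the genes it tested called lower in STH. Without QHMM replicate 2 and STH replicate 3, edgeR called 0 of the 10 genes, with 7 lower at an unadjusted p below 0.05, against 8.81% of all genes tested there. It called 11 genes in all.

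As a share of all reads, the 10 genes together took 3.13% of the counts in QHMM replicate 1 (95% Wilson interval 3.13% to 3.14%), 3.45% in replicate 2 (3.44% to 3.46%) and 3.08% in replicate 3 (3.07% to 3.09%). In STH they took 2.16% (2.15% to 2.17%), 1.87% (1.87% to 1.88%) and 2.56% (2.55% to 2.57%). Every STH share was below every QHMM share. On the TMM scale the breeds overlapped, with summed normalized counts of 404552, 529409 and 390605 in the QHMM libraries and 235434, 221702 and 391860 in the STH libraries. The raw shares within each breed differed by more than these intervals, which cover counting error only. In muscle homogenates of this kind, fewer cells of a type and less RNA per cell cannot be told apart.

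**Figure D1:**
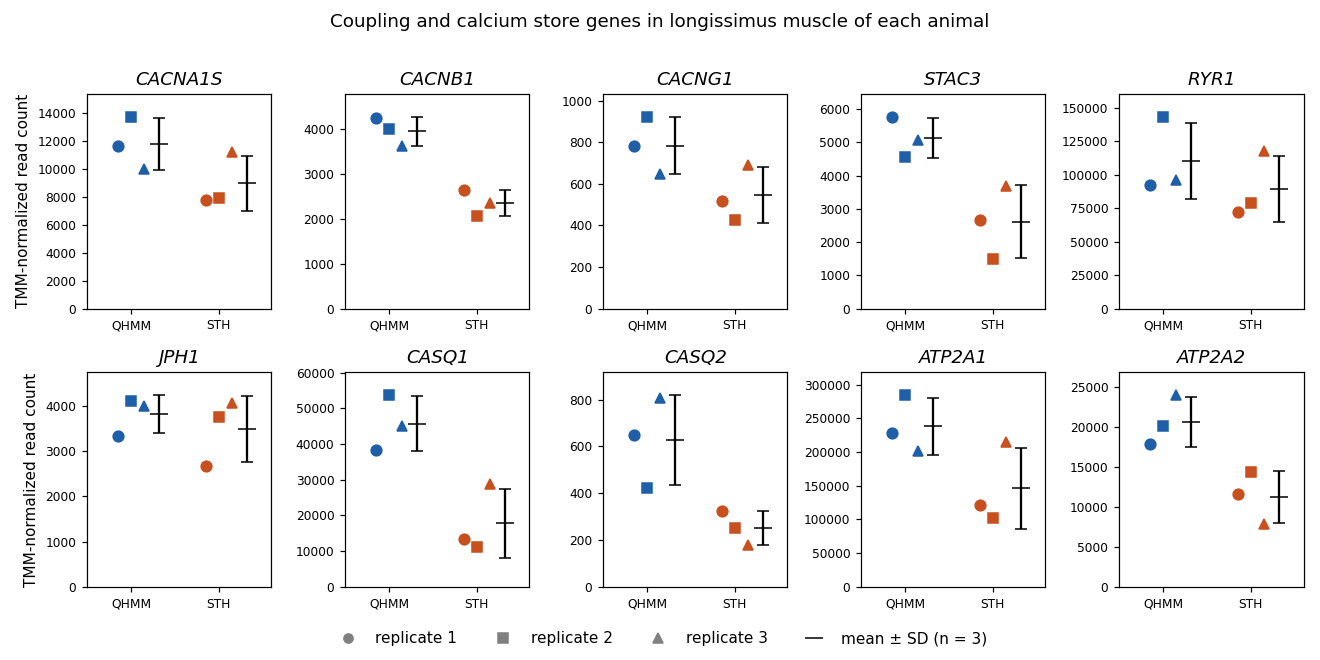
TMM-normalized read count (vertical axes, starting at 0) of each of the 10 genes in the 3 QHMM and 3 STH libraries, with the marker shape giving the replicate and the bar the mean ± SD of the 3 animals. All STH points lie below all QHMM points for CACNB1, STAC3, CASQ1, CASQ2 and ATP2A2, and the breeds overlap on this scale for the other genes.

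The voltage sensor is built around CACNA1S, the pore-forming subunit of the dihydropyridine receptor. The QHMM animals had 11652, 13723 and 10023 normalized counts of it, and the STH animals 7771, 7910 and 11246. STH replicate 3 stood inside the QHMM range and the other STH animals lay below it, so the breeds overlapped, although by RPKM they did not. The mean was 11799 ± 1855 (SD, n = 3) in QHMM and 8976 ± 1968 in STH, a log2 fold change of -0.39 with a standard error (SE) of 0.26 and an edgeR FDR of 0.451. CACNB1, the beta subunit that helps to carry the channel to the membrane, had 4250.2, 4003 and 3619 normalized counts in QHMM and 2655, 2057 and 2357 in STH. The breeds were clear of each other, and the spread within each was small, with an SD of 8.04% of the mean in QHMM and 12.7% in STH. The log2 fold change was -0.75 (SE 0.22), in 3 of 3 STH animals below all QHMM animals, and the edgeR FDR of 0.0962 missed the threshold.

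CACNG1, the gamma subunit, is a small membrane protein bound to the pore. It had 783, 921 and 645 normalized counts in QHMM and 519, 425 and 689 in STH. The highest STH animal was above the lowest QHMM animal, as for CACNA1S, again on the normalized scale but not by RPKM, and the same 2 libraries, QHMM replicate 2 and STH replicate 3, were the highest of their breeds for both subunits. The log2 fold change of CACNG1 was -0.52 (SE 0.24, edgeR FDR 0.270). STAC3, an adaptor that the voltage sensor needs for its place in the membrane and for coupling to release, had 5758, 4555 and 5058 normalized counts in QHMM and 2665, 1500.1 and 3681 in STH. All STH animals were below all QHMM animals, and STH replicate 2 was the lowest. The mean was 5124 ± 604 (SD, n = 3) in QHMM and 2615 ± 1092 in STH, a log2 fold change of -0.97 (SE 0.32) with an edgeR FDR of 0.124, so the difference was not called.

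RYR1 is the release channel of the sarcoplasmic reticulum in skeletal muscle. QHMM animals had 92707, 143189 and 95852 normalized counts and STH animals 72518, 78612 and 117965. The high animal of each breed was again QHMM replicate 2 and STH replicate 3, and the latter exceeded the other QHMM animals. The mean was 110582 ± 28282 (SD, n = 3) in QHMM and 89698 ± 24669 in STH. The log2 fold change was -0.30 (SE 0.30, edgeR FDR 0.640), a difference no larger than its error. It was -0.068 without QHMM replicate 2 and -0.55 without STH replicate 3, the extremes over the libraries left out.

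JPH1, a junctophilin, holds the transverse tubule and the reticulum at a short distance from each other. It had 3339.9, 4119 and 4001 normalized counts in QHMM and 2666, 3758 and 4054 in STH. STH replicate 1 was the only animal clearly below the rest. The log2 fold change was -0.13 (SE 0.24, edgeR FDR 0.823, 95% confidence interval -0.67 to 0.41), and without STH replicate 1 it turned to 0.017.

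The store buffers had the lowest fold changes of the 10 genes. CASQ1, the calsequestrin that buffers calcium next to the release channel in fast fibres, had 38432, 53695 and 45002 normalized counts in QHMM and 13325, 11178 and 28704 in STH. STH replicate 3 had more than the other STH animals but still less than any QHMM animal, and the SD in STH was 53.9% of the mean, the widest of any of the 10 genes in either breed. The mean was 45710 ± 7656 (SD, n = 3) in QHMM and 17736 ± 9559 in STH, a log2 fold change of -1.37 (SE 0.37, 95% confidence interval -2.18 to -0.55), and the edgeR FDR of 0.0714 missed the threshold. CASQ1 was called by DESeq2 (adjusted p 0.00160), by limma on log2(RPKM + 1) (0.0193), by edgeR without the filter on low counts (FDR 0.0255) and by edgeR without STH replicate 3, where the log2 fold change was -1.90 (FDR 0.0143). Over all alternatives its adjusted p ran from 0.00160 to 0.231.

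CASQ2, the calsequestrin shared by slow fibres and the heart, had 650.1, 424 and 807 normalized counts in QHMM and 325, 252 and 179.7 in STH. The breeds did not overlap, with QHMM replicate 2 and STH replicate 3 the lowest of their breeds, the reverse of their place for CASQ1 and RYR1, where they were the highest. By RPKM the breeds overlapped, with 23.0 in STH replicate 1 and 21.3 in QHMM replicate 2, the library with the lowest TMM factor. CASQ2 was 2.48-fold lower in STH, with a mean of 627 ± 193 (SD, n = 3) in QHMM and 252 ± 72.5 in STH, a log2 fold change of -1.31 (SE 0.30, 95% confidence interval -1.96 to -0.66) and an edgeR FDR of 0.0409. The call was lost when QHMM replicate 1, QHMM replicate 3, STH replicate 2 or STH replicate 3 was left out, with FDRs of 0.0986, 0.127, 0.0993 and 0.0896 and log2 fold changes of -1.31, -1.09, -1.33 and -1.12. It was also lost with limma on log2(RPKM + 1) (log2 fold change -1.14, adjusted p 0.128) and without QHMM replicate 2 and STH replicate 3 together (log2 fold change -1.35, FDR 0.104), and over all alternatives the adjusted p ran from 0.00130 to 0.243.

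ATP2A1 encodes SERCA1, the calcium pump of fast fibres, and had 229128, 284717 and 201619 normalized counts in QHMM and 121431, 101635 and 215106 in STH. STH replicate 3 stood within the QHMM range, at nearly double the other STH animals, so the breeds overlapped through that animal alone. By RPKM they did not overlap, with 3958 in STH replicate 3 and a lowest QHMM value of 4479. The log2 fold change was -0.71 (SE 0.33, edgeR FDR 0.280), and -1.09 without STH replicate 3. ATP2A2 encodes SERCA2, the pump of slow fibres and the heart, and had 17852, 20063 and 23979.6 normalized counts in QHMM and 11558, 14376 and 7877 in STH. All STH animals lay below all QHMM animals, and STH replicate 3, high for ATP2A1, was the lowest for ATP2A2. The mean was 20632 ± 3103 (SD, n = 3) in QHMM and 11270.2 ± 3259 in STH, a log2 fold change of -0.87 (SE 0.29, edgeR FDR 0.125), which was not called.

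**Figure D2:**
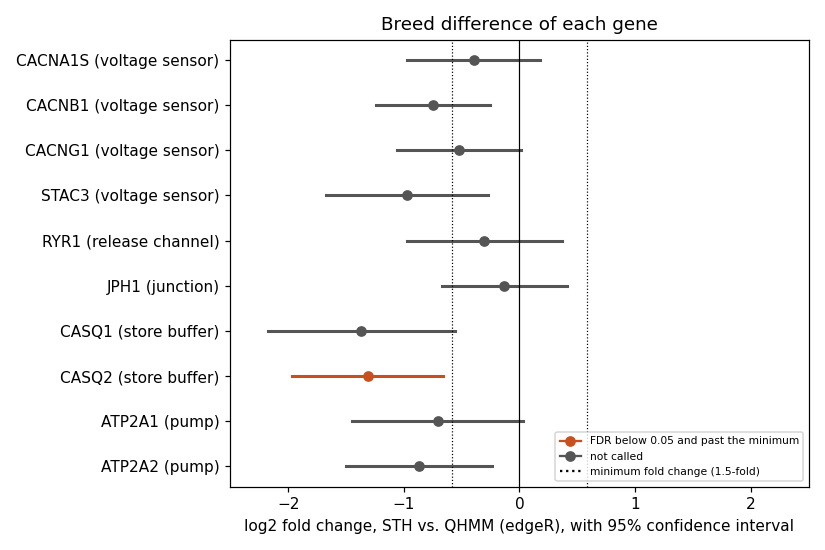
Log2 fold change of STH against QHMM (horizontal axis) for each of the 10 genes, grouped by role, with lines for the 95% confidence interval from edgeR and dotted lines at the minimum change of 1.5-fold. All 10 estimates are below 0 (JPH1 turns to 0.017 without STH replicate 1), and CASQ2 (-1.31) is the 1 called gene.

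Levels of different genes were compared per length, as the deposited RPKM. The lengths implied by counts and RPKM ran from 473 bases for CACNG1 to 14616 for RYR1, with 1596 for JPH1. The order of levels depends on these lengths, and the gene models behind them are not given. ATP2A1 had the highest level in all 6 libraries, with a mean RPKM of 4904 in QHMM and 3171 in STH. CASQ1 was next (1778 and 716) and RYR1 after it (549 and 479), in these places in every library, although the RPKM ranges of CASQ1 and RYR1 over the STH animals overlapped. ATP2A2 (383 and 233), JPH1 (176 and 173), STAC3 (227 and 121), CACNA1S (141 and 116) and CACNG1 (121.0 and 90.6) held places 4 to 8. The places of these genes changed between libraries: in QHMM the ranges of JPH1 and STAC3 overlapped, and in STH those of ATP2A2 and JPH1 and of STAC3 and CACNA1S did. CACNB1 (89.5 and 58.3) and CASQ2 (36.4 and 16.2) were at places 9 and 10 in every library.

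Because a ratio of genes within a library does not depend on how that library was scaled, each gene was also set against RYR1 in the same library. This was chosen after the values were seen and carries no test. The RPKM of CASQ1 was 322%, 292% and 365% of that of RYR1 in the QHMM animals, against 143%, 111% and 189% in the STH animals. ATP2A1 stood at 1018%, 819% and 866% of RYR1 in QHMM animals, against 689%, 532% and 751% in STH animals. In these 2 of 9 genes all STH ratios lay below all QHMM ratios, which held for 3.36% of all tested genes with an RPKM. The other genes overlapped: CACNA1S, for example, was at 22.9% to 30.1% of RYR1 in QHMM and 22.8% to 25.7% in STH.

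**Figure D3:**
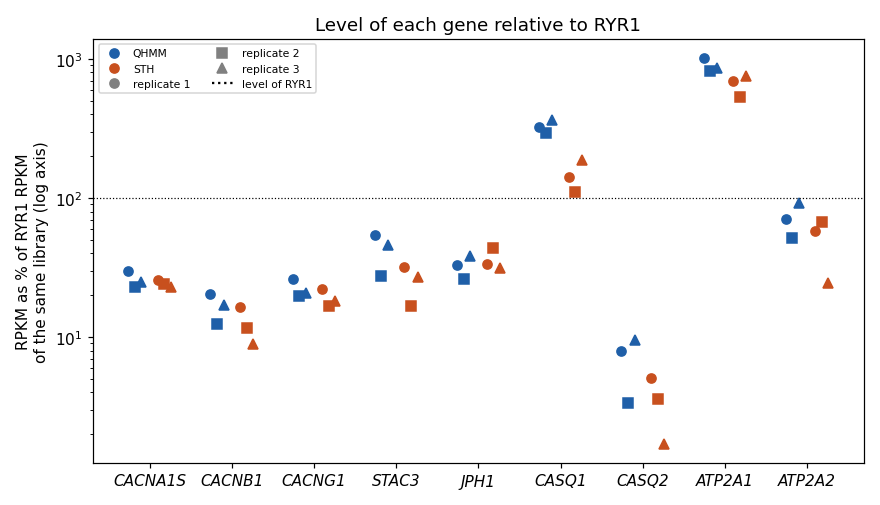
RPKM of 9 genes as a percentage of the RPKM of RYR1 in the same library (logarithmic vertical axis), with blue points for QHMM, orange points for STH, the marker shape for the replicate and a dotted line at the level of RYR1. CASQ1 (292% to 365% in QHMM, 111% to 189% in STH) and ATP2A1 are the 2 genes whose breeds do not overlap.

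The balance between paired isoforms was compared within each library as the log2 ratio of their RPKM. CASQ2 made up 2.40%, 1.13% and 2.54% of the summed RPKM of CASQ1 and CASQ2 in QHMM, and 3.41%, 3.17% and 0.900% in STH. The breeds overlapped, and STH replicate 3 and QHMM replicate 2 had the smallest shares. The log2 ratio was -5.69 ± 0.66 (SD, n = 3) in QHMM and -5.51 ± 1.10 in STH, a difference of 0.17 (two-sided exact permutation p = 0.7, adjusted over the pair of ratios 0.9). ATP2A2 made up 6.48%, 5.89% and 9.56% of the summed RPKM of ATP2A1 and ATP2A2 in QHMM, and 7.80%, 11.2% and 3.15% in STH. STH held both the highest and the lowest of the 6 shares, in replicates 2 and 3. The log2 ratio was -3.70 ± 0.40 in QHMM and -3.83 ± 1.002 in STH, a difference of -0.14 (two-sided exact permutation p = 0.9, adjusted 0.9). With 3 animals against 3 this test cannot give a p below 0.1, and both differences were smaller than the SD within either breed. Without STH replicate 3 the differences were 0.81 for CASQ2 to CASQ1 and 0.42 for ATP2A2 to ATP2A1, and without that animal and QHMM replicate 2 they were 0.43 and 0.27.

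Among the 10 genes, likeness of pattern was measured as the SD, over the 6 libraries, of the log2 ratio of normalized counts, with 0 for genes in a constant ratio. The closest pairs were CACNA1S with CACNG1 (SD 0.13), CACNA1S with RYR1 (0.15) and the pump ATP2A1 with CACNG1 (0.20). Other voltage sensor members were less close to CACNA1S, at 0.32 for CACNB1 and 0.51 for STAC3. The least alike were CASQ2 and RYR1 (0.90). The paralogs had an SD of 0.82 for CASQ1 and CASQ2 and 0.69 for ATP2A1 and ATP2A2. The median SD against all genes compared below was 0.998 for CASQ1, 0.90 for CASQ2, 0.66 for ATP2A1 and 0.69 for ATP2A2. ATP2A2 was about equally close to CASQ2 and CACNB1 (0.41 each), and ATP2A1 was closest to CACNG1 (0.20).

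Over the 7158 other tested genes with a mean normalized count of at least 100, the nearest to CACNA1S were ASCC2, TIMM17B and MTX1 (SD of the log2 ratio 0.06 each). CACNB1 was nearest to DYNLL1, ST5 and ABR (0.07 to 0.08), CACNG1 to MLEC, FAM125B and ZNF672 (0.05 to 0.08), and STAC3 to B3GALTL, SLC9A2 and KCTD15 (0.13 to 0.14). RYR1 was nearest to TPM1, a tropomyosin of the thin filament, with SDHB and SNX19 after it (0.07 to 0.08), and JPH1 to COMMD1, ZNF32 and NAPG (0.06 to 0.07). The nearest genes to CASQ1 were LOC780509, annotated in the deposited table as myoglobin, LOC101117028 and PKM, the muscle form of pyruvate kinase (0.18 to 0.21). Those to CASQ2 were BMPR1A, CACNA2D1 and FEM1C (0.14 to 0.19), of which CACNA2D1 encodes the alpha2delta subunit of the voltage sensor itself. ATP2A1 was nearest to NDRG2, SAMD1 and SPEG, a kinase of the triad (0.07 to 0.10), and ATP2A2 to FBXO40, ALDH6A1 and EPB41 (0.16 to 0.18). The median SD over all these genes was between 0.41 for JPH1 and 0.998 for CASQ1.

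A wider list of 88 other genes of the pathway, also chosen with earlier results of these data known, was counted by role. The table listed 74 of them and 63 were tested. edgeR called 2 lower in STH, CAMK2G and JPH2, against 1.83% of all tested genes, and 0 higher, against 1.62%. At an unadjusted p below 0.05 there were 22 lower and 2 higher of the 63, against 9.72% and 9.43% of all tested genes, and DESeq2 called 11 lower, against 3.91% of the genes it tested, and 0 higher. The median log2 fold change was -0.39, and 49 of the 63 values were negative. In 24 genes all STH animals lay below all QHMM animals, against 11.7% of all tested genes, and in 2 all lay above (CAMK2B and ATP1B1), against 13.0%. By RPKM, DNM2, TCAP and SDF4 joined those above, and SPEG and BIN1 those below. CACNA2D1, CACNB3, CALM2, CAMK2D, RCN2, PLN, SLC8A1 and KCNJ2, below in normalized counts, overlapped by RPKM. STAC2 is in the counts of 22, 49 and 24, but it passed the filter only through QHMM and adds no support to them. Without QHMM replicate 2 and STH replicate 3, edgeR called 1 of the list, lower in STH. It was PVALB, which had not passed the filter with all libraries, and neither CAMK2G nor JPH2. PVALB was high in QHMM alone among the 4 libraries left, so it could pass the filter only through that breed and its call is no support.

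Other voltage sensor subunits and family members numbered 7 tested genes, of which edgeR called 0. DESeq2 called 1 lower, against 3.91% of the genes it tested. At an unadjusted p below 0.05, 3 were lower, against 9.72% of all tested genes. Among the 7 was STAC2, named after its values were seen, which passed the filter only through QHMM and so had to be lower in STH. It was 1 of the 3 at that p. CACNA2D1 had 846, 462 and 969.7 normalized counts in QHMM and 387, 339 and 259.9 in STH. Every STH animal was below every QHMM animal and the log2 fold change was -1.21 (SE 0.29), with an edgeR FDR of 0.0506, just short of a call. It was called in 5 of the 10 alternative settings that kept all libraries. The other subunits of highest RPKM were CACNG6 (log2 fold change -0.60, SE 0.23) and CACNB3 (-0.45, SE 0.30), both with all STH animals below all QHMM animals and neither called. By RPKM, CACNA2D1 and CACNB3 overlapped between breeds.

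Of 14 tested isoforms and regulators of the release channel, edgeR called 1 lower, against 1.83% of all tested genes. At an unadjusted p below 0.05, 6 were lower and 1 higher, against 9.72% and 9.43% of all tested genes. DESeq2 called 1 lower, against 3.91% of the genes it tested. CAMK2G, the gamma form of calmodulin-dependent kinase II, had 1039, 1308 and 1292 normalized counts in QHMM and 557, 369 and 560.5 in STH. All STH animals had less than any QHMM animal, and CAMK2G fell by 1.29 on the log2 scale (SE 0.24, edgeR FDR 0.0193). CAMK2B, the beta form, named after its values were seen, had 536, 708 and 646 in QHMM and 979, 1051 and 969.5 in STH. It lay the other way in every animal and was not called (log2 fold change 0.67, SE 0.20, FDR 0.105). The calmodulin gene CALM3 had a log2 fold change of -0.87 (SE 0.34), and triadin, TRDN, which anchors calsequestrin to the release channel, had -0.23 (SE 0.26). Neither was called with all libraries. Without STH replicate 3, CALM3 was called at -1.36 (edgeR FDR 0.0340), and over all alternatives its adjusted p ran from 0.0340 to 0.493.

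In the triad junction and transverse tubule, 2 of 10 tested genes were lower at an unadjusted p below 0.05, against 9.72% of all tested genes. DESeq2 called 2 lower, against 3.91% of the genes it tested. edgeR called 1, JPH2, against 1.83% called lower over all tested genes. This second junctophilin, best known from the heart, had 884, 874 and 824 normalized counts in QHMM and 176, 63.6 and 313 in STH. The QHMM animals were close together, the STH animals were all far below them, and STH replicate 2 was the lowest. JPH2 fell by 2.22 on the log2 scale (SE 0.44, edgeR FDR 0.0248), while its paralog JPH1 had -0.13. The difference between the paralogs was not tested. At the RPKM scale JPH2 had a mean of 45.6 in QHMM and 10.1 in STH, below JPH1 in both breeds. BIN1, which shapes the tubule, had a log2 fold change of -0.57 (SE 0.30), the caveolin CAV3 -0.21 (SE 0.39) and TCAP, a titin-binding protein, 0.40 (SE 0.27), all with overlapping breeds and not called. By RPKM, BIN1 lay lower in all STH animals and TCAP higher. SYPL2, named after its values were seen, was the other gene at an unadjusted p below 0.05. Its log2 fold change was -1.20 (SE 0.35, edgeR FDR 0.0895), with all STH animals below all QHMM animals on both scales.

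CAMK2G lost its call without QHMM replicate 2 (FDR 0.0614), QHMM replicate 3 (0.0666) or STH replicate 2 (0.0517), where its log2 fold changes were -1.23, -1.24 and -1.14. JPH2 lost its call without QHMM replicate 1 (FDR 0.0664), 2 (0.0619) or 3 (0.0658), at log2 fold changes of -2.22, -2.21 and -2.25, close to its value with all libraries. Without QHMM replicate 2 and STH replicate 3 together, the FDR was 0.118 for CAMK2G and 0.0699 for JPH2, with log2 fold changes of -1.34 and -2.83. With limma on log2(RPKM + 1) without a filter both calls were also lost. The adjusted p was then 0.0700 for CAMK2G and 0.0697 for JPH2, at log2 fold changes of -1.16 and -2.24. Over all alternatives the adjusted p ran from 6.76e-05 to 0.118 for CAMK2G and from 3.46e-06 to 0.0699 for JPH2.

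Of 10 other store buffers, edgeR called 0, with 3 lower at an unadjusted p below 0.05, against 9.72% of all tested genes. DESeq2 called 2 lower, against 3.91% of the genes it tested. HRC, a histidine-rich calcium binder of the reticulum, had 6751, 8182 and 6439 normalized counts in QHMM and 3925, 4059 and 3868 in STH. The breeds were well separated, with a log2 fold change of -0.85 (SE 0.23, edgeR FDR 0.0683). Sarcalumenin, SRL, had a log2 fold change of -0.86 (SE 0.30), also with no overlap, and calreticulin, CALR, the buffer of the general endoplasmic reticulum, had -0.01 (SE 0.24).

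Among the 6 tested pump genes and pump peptides, edgeR called 0. There were 3 lower at an unadjusted p below 0.05, against 9.72% of all tested genes. DESeq2 called 1 lower, against 3.91% of the genes it tested. SLN and PLN, peptides that inhibit SERCA, had all STH animals below all QHMM animals, PLN on the normalized scale only. Sarcolipin, SLN, had 20749.7, 26839.7 and 20527 normalized counts in QHMM and 17134, 7673 and 16817 in STH (log2 fold change -0.71, SE 0.33, edgeR FDR 0.271). Phospholamban, PLN, had 967, 579.7 and 1081 in QHMM and 490.3, 558 and 167 in STH (-1.11, SE 0.40, FDR 0.161). STH replicate 3 was lowest for PLN, as it was for ATP2A2, the pump that PLN is best known to inhibit. The exchanger SLC8A3 had a log2 fold change of -0.66 (SE 0.21) and was not called.

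Counter-ion and excitation channels gave 0 calls by edgeR among 9 tested genes. At an unadjusted p below 0.05, 4 were lower and 1 higher, against 9.72% and 9.43% of all tested genes. DESeq2 called 3 lower, against 3.91% of the genes it tested. TMEM38A, the TRIC-A channel that balances charge during release, had 3941, 4146 and 3361 normalized counts in QHMM and 2154, 1596 and 2374 in STH. It did not overlap between breeds (log2 fold change -0.90, SE 0.24, edgeR FDR 0.0683). For ATP1B1, a sodium pump subunit, all STH animals lay above all QHMM animals (log2 fold change 0.56, SE 0.22, edgeR FDR 0.187).

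Inositol trisphosphate receptors, the release channels of most other cell types, were low, with a mean RPKM of 1.54 in QHMM and 1.96 in STH for ITPR1, 1.46 and 1.51 for ITPR2, and 1.01 and 1.05 for ITPR3. edgeR called 0 of the 3, with 0 at an unadjusted p below 0.05 and 0 called by DESeq2, and their breeds overlapped. Of the calcium binders of the thin filament, TNNC1, the slow troponin C, had a log2 fold change of -1.14 (SE 0.30, edgeR FDR 0.0647) with no overlap, and TNNC2, the fast form, -0.19 (SE 0.32) with overlap. DESeq2 called 1 of this pair lower, against 3.91% of the genes it tested, and edgeR 0. At an unadjusted p below 0.05, 1 was lower, against 9.72% of all tested genes. Parvalbumin, PVALB, had 242, 3.54 and 134 normalized counts in QHMM and 8.32, 3.23 and 0 in STH, and was too low in too many libraries to be tested with all 6. MCU, the calcium channel of mitochondria, overlapped between breeds and was not called by edgeR or DESeq2 (log2 fold change 0.34, SE 0.24).

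Of 12 slow fibre markers the table listed 10, all tested. edgeR called 6 of the 10 lower in STH (OMYHCS, MYH6, MYH7B, MYL2, MYL6B and TNNT1), against 1.83% of all tested genes. The median log2 fold change of the list was -1.40. The summed RPKM of the 10 was 22386, 16779 and 25671 in QHMM and 7940.4, 11567 and 7348 in STH. MYL2 led these sums except in STH replicate 3, where TNNC1 did. These sums did not overlap. Without QHMM replicate 2 and STH replicate 3, edgeR called 0 of the 10. All 10 were lower at an unadjusted p below 0.05, against 8.81% of all genes tested there. Of 13 fast fibre markers 11 were listed and 10 tested, and edgeR called 0. At an unadjusted p below 0.05, 2 were lower, against 9.72% of all tested genes. DESeq2 called 1 lower, against 3.91% of the genes it tested, and the median of the fast fibre markers was -0.32. Their summed RPKM, led by MYLPF, was 70157, 84624 and 92273 in QHMM and 62813, 66624 and 83274 in STH, which overlapped. TNNT3, fast troponin T, was listed at 0 in every library. The gene models behind the counts are not given, so a value at or near 0, as for TNNT3 and PVALB, does not show that the transcript was absent. The list's symbols MYH1 and MYH2 were not in the table, which gives these fast myosins as OMYHC2X and OMYHC2A, so the sum leaves out both. OMYHC2X had a log2 fold change of -0.22 (SE 0.28) with overlapping breeds, and OMYHC2A -0.82 (SE 0.32, edgeR FDR 0.200) with all STH animals below all QHMM animals. The part of fibre type in the values of the coupling and store genes was not tested.

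Relative to the summed slow fibre markers of the same library, also chosen after the values were seen, CASQ2 was at 0.174%, 0.127% and 0.191% in QHMM and 0.289%, 0.142% and 0.123% in STH on the RPKM scale. ATP2A2 was at 1.55%, 1.95% and 1.84% in QHMM and 3.34%, 2.63% and 1.75% in STH. Both overlapped between breeds. By RPKM alone, CASQ2 also overlapped and ATP2A2 did not. Relative to the summed fast fibre markers, CASQ1 was at 2.26%, 2.20% and 2.05% in QHMM and 1.03%, 0.754% and 1.20% in STH. These did not overlap, whereas ATP2A1 relative to the same sum did, at 4.85% to 7.13% in QHMM and 3.63% to 4.99% in STH. With OMYHC2X and OMYHC2A added to the sum, CASQ1 again did not overlap (1.84% to 1.96% in QHMM, 0.678% to 1.08% in STH). ATP2A1 then no longer overlapped either, by a narrow margin (4.38% to 6.17% and 3.27% to 4.298%).

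Of 6 adipocyte markers, edgeR called 4 lower in STH, against 1.83% of all tested genes, with a median log2 fold change of -2.25 over the list. The 4 were ADIPOQ, PLIN1, CIDEC and LEP, and LEP passed the filter only through QHMM. LPL (-1.66, FDR 0.0851) and FABP4 (-0.04, FDR 0.980, breeds overlapping), which had the highest mean RPKM of the list over the 6 libraries but not in QHMM alone, were not called. The summed RPKM was 397, 84.9 and 151 in QHMM and 159.6, 83.7 and 50.2 in STH, which overlapped. The summed normalized counts, 7574, 2146 and 3248 against 1594, 1299 and 919.8, did not, and LEP was at 0 in STH replicate 2. Without QHMM replicate 2 and STH replicate 3, edgeR called 0 of the 6. At an unadjusted p below 0.05, 5 were lower, against 8.81% of all genes tested there. The part of the adipocyte markers in the results was not tested. Muscle identity genes had a median of -0.06 over 7 tested and 0 called by edgeR or DESeq2, with ACTA1 the most abundant. At an unadjusted p below 0.05, 1 was lower, against 9.72% of all tested genes. The list's symbol MB was not in the table, so this median leaves out LOC780509, annotated there as myoglobin. LOC780509 had a log2 fold change of -1.47 and was not called (edgeR FDR 0.0683). Of the cardiac markers, NPPA, NPPB and NKX2-5 were at 0 in all libraries, MYBPC3 and RYR2 had too few reads to be tested, and TNNI3 had an RPKM of 2.15 to 4.81 and a log2 fold change of -0.49 (edgeR FDR 0.476). edgeR called 0 of the 5 smooth muscle, 4 fibroblast, 3 endothelial and 4 macrophage markers tested, and 0 of the blood markers passed the filter. At an unadjusted p below 0.05, 1 fibroblast marker was lower, against 9.72% of all tested genes. DESeq2 called 1 fibroblast marker lower, against 3.91% of the genes it tested. All 4 fibroblast markers had negative log2 fold changes, with a median of -0.68 and the lowest in COL1A1 (-1.30). The smooth muscle, endothelial and macrophage medians were 0.08, 0.04 and 0.01. The part of these markers in the results was not tested.

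In a newer sheep assembly, ARS-UI_Ramb_v3.0, all 10 symbols were found once. There, STAC3 overlaps R3HDM2, NDUFA4L2 and a long non-coding RNA, CASQ1 a long non-coding RNA, ATP2A1 RABEP2 and a long non-coding RNA, and ATP2A2 overlaps ANAPC7. The sources do not state whether reads were counted by strand, so some reads of these 4 genes may belong to their neighbours. The other 6 genes overlap none.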

How the data were processed

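The authors mapped Ion Proton reads to sheep assembly Oar_v3.1, kept reads with a single place in it, and deposited a read count and an RPKM for each gene and library. The aligner, counting tool, gene annotation and use of strand are not given in the sources used here. Every deposited column was assigned to a sample, leaving 0 over. Counts were tested with edgeR 4.0.16 in R 4.3.3 (quasi-likelihood F test, TMM factors, filterByExpr by breed, breed as the only term), in place of EBSeq, which the study used and which was not available. The thresholds were those of the study, FDR below 0.05 with a log2 fold change beyond 0.585 either way. With EBSeq, the study reported STAC3, CASQ1 and CASQ2 among its genes lower in STH. Of these, edgeR called CASQ2 alone. Standard errors came from the fold change and the F statistic. Normalized counts were scaled to the median library total, 13044142.5. RPKM was used for levels between genes and for ratios. Some gene names in the RPKM table had turned into dates and were not matched, and 4 RPKM entries with repeated names were left out. Principal components used log2 normalized counts of the 12506 tested genes with 0.5 added.

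Alternatives were other size factors, DESeq2 1.42.0, other count filters, limma 3.58.1 on log2(RPKM + 1) or log2(RPKM + 0.1) with at least 1 RPKM in 3 libraries or no filter, a replicate block, no minimum fold change, a fit without the 20 most abundant genes, and fits without each library in turn. Leaving out QHMM replicate 2 with STH replicate 3 was chosen after seeing the data. The procedure was tested on simulated data. Named from the wider list were the called genes and those among the 3 of highest mean RPKM in each role, some of which are not reported. For each of the 10 genes the 3 nearest in pattern were named. The members and lists were chosen with earlier results of these data known. Gene names and overlaps were checked in RefSeq's table of ARS-UI_Ramb_v3.0, which differs from the build of the files, so no positions are given. Figures were drawn with matplotlib 3.10.9.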

Additional observations from a re-analysis of the deposited data

How the results depend on the processing

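The number of genes called changed with the setting. Among the 10 coupling and store genes, JPH1 alone changed sign, in 1 alternative. Over all genes, 432 were called, against 956 by DESeq2, 806 without a filter on low counts, 78 by limma on log2(RPKM + 1) without a filter, 131 to 535 when 1 library was left out and 11 without QHMM replicate 2 and STH replicate 3. Among the 10 coupling and store genes the count of 1 became 5 by DESeq2, 2 without a filter, 0 by limma without a filter (7 at an unadjusted p below 0.05), 0 to 1 when 1 library was left out (5 to 6 at that p where it was 0) and 0 without both libraries (7 at that p). In the wider list the count of 2 became 11, 6, 0 (21 at that p), 0 to 5 (21 at that p where it was 0) and 1 under the same alternatives. Numbers on the replicates did not pair the animals, with correlations of deviations between same-numbered animals of 0.263, -0.0800 and -0.154. Blocking on that number called 457 genes, 1 of the 10 and 3 of the wider list, and gave CALR 0.014. limma on RPKM moved the median of all genes by 0.10 to 0.11 on the log2 scale, which bears on every value from it. Called by DESeq2 as well were CACNB1 (-0.76), STAC3 (-0.98), CASQ1 (-1.38) and ATP2A2 (-0.89). CASQ1 was called at -1.38 without a filter, at -1.36 by limma on log2(RPKM + 1) and at -1.37 with 0.1 added. CASQ2 was not called by limma, at -1.14 with or without a filter and -1.19 with 0.1 added. Signs turned by limma on RPKM in CALR (0.13 in all 3 fits), ITPR2 (0.034, 0.046 with 0.1 added, 0.034 unfiltered) and ITPR3 (0.030, 0.057 and 0.030). With 1 library left out, values ran from -0.25 to 0.017 for JPH1, -1.90 to -1.13 for CASQ1, -1.55 to -1.09 for CASQ2, -0.36 to 0.025 for TRDN, -0.83 to 0.11 for CAV3, -0.67 to -0.24 for CACNB3, -0.90 to -0.44 for BIN1, 0.16 to 0.53 for TCAP, -0.90 to -0.44 for SLN, -1.43 to -0.74 for PLN, -0.55 to -0.029 for TNNC2, 0.22 to 0.56 for MCU, -0.19 to 0.14 for CALR, -0.29 to 0.41 for ITPR1, -0.32 to 0.33 for ITPR2 and -0.15 to 0.027 for ITPR3. The log2 ratios ran from -0.21 to 0.81 for CASQ2 to CASQ1 and -0.56 to 0.42 for ATP2A2 to ATP2A1. Without QHMM replicate 2 and STH replicate 3, the ratio of ATP2A2 to ATP2A1 was at 0.27. RYR1 and ATP2A1 are among the 20 most abundant genes and have no value in the fit without these. The causes of these changes were not tested. Fits that leave libraries out also hold fewer animals.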
